A study of Mus musculus with 10 samples.

Results

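The circadian clock genes of the lung were followed mouse by mouse in whole-lung RNA from mice with and without Cre directed to the lung epithelium. The members were 10 of the 27179 genes in the counts table, chosen by name: the activators Arntl (also called Bmal1), Clock and Npas2, the repressors Per1, Per2, Per3, Cry1, Nr1d1 and Nr1d2, and the output gene Dbp. All 10 were found and all 10 passed the filter on low counts. The control group, Flox, held 5 mice of the genotype Shh +/+ IRE1α fl/fl. The other group, labelled EpithelialKO, held 5 mice of the genotype Shh Cre/+ IRE1α fl/fl. Both groups therefore carried the floxed alleles of Ern1, the gene for IRE1α, an endoplasmic reticulum sensor that splices Xbp1 mRNA. Only EpithelialKO carried Cre, which sits at one allele of the Shh locus and is active in the lung epithelium. Each mouse gave 1 library of the whole lung, so cells outside the Cre lineage contributed to every value. The labels give no age, sex, strain or treatment, and no hour of tissue collection or light schedule.

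In the clock of mammalian cells, ARNTL pairs with CLOCK or NPAS2 and the pair binds E-box sequences in DNA. It switches on its own inhibitors, the Per and Cry genes, as well as Nr1d1, Nr1d2 and Dbp. The nuclear receptors encoded by Nr1d1 and Nr1d2 (REV-ERBα and REV-ERBβ) repress Arntl and Npas2 through RORE sequences, and DBP acts on D-box sequences such as those at Per3. In peripheral tissues, the lung included, Arntl and Npas2 transcripts are therefore high at the opposite time of day to Nr1d1, Dbp and the Per genes. The lung clock is known to run in the club cells of the airway and in other cell types of the organ. Per1 mRNA has been described as a substrate of IRE1-dependent decay in other cells.

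Promoter sequences of the members were taken from the RefSeq promoter table (build GRCm38.p6), which covers 250 bases before and 50 bases after each transcription start. It held 13 promoters of 9 members, all but Per2. Searched on both strands were the E-box CACGTG, its variant CACGTT, the D-box as TTATGTAA or TTACGTAA, the RORE as TAGGTCA or TGGGTCA, and the cyclic AMP response element TGACGTCA. Of the 32851 promoters in the table, 7.15% held the E-box, 4.68% its variant, 1.06% a D-box, 6.45% a RORE and 1.79% the cyclic AMP response element. No match overlapped another. Positions count from the start site, with -1 for the base before it and 1 for the start itself. The promoters of Per3 and Cry1 are shown because each held more than 1 match. In the 250 bases before the Per3 start (chr4:151044666-151044915, minus strand), the capitals mark D-boxes at -205 and -158. In the 250 bases before the Cry1 start (chr10:85185055-85185304, minus strand), they mark the E-box variant at -79 on the reverse strand and the E-box at -60.
Per3: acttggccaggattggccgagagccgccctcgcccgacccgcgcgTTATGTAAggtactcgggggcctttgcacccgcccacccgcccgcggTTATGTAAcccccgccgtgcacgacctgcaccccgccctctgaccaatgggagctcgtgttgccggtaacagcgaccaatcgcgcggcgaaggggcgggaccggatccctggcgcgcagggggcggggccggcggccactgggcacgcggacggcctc
Cry1: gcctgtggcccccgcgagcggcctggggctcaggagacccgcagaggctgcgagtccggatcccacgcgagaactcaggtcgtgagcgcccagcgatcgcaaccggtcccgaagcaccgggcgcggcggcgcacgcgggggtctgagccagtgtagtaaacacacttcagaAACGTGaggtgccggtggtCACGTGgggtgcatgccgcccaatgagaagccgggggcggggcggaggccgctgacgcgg

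Single matches stood in 3 other members, shown as windows of 30 bases with the match in capitals. They were an E-box at -166 of Per1 (chr11:69098771-69098800, plus strand), the E-box variant at -28 of Nr1d1 (chr11:98775388-98775417, minus strand, match on the reverse strand) and a RORE at 31 of Arntl (chr7:113207530-113207559, plus strand). Per1 and Arntl had 2 promoters each, and the other promoter of each held no match. The positions count from the starts at chr11:69098949 for Per1 and chr7:113207511 for Arntl. The promoters of Clock, Npas2, Nr1d2 and Dbp in the table held none of these letters in this window. A match is a description of the sequence and does not show binding.
Per1: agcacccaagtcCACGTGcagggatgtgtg
Nr1d1: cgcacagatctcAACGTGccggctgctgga
Arntl: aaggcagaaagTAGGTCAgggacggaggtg

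Depth lay between 14983829 and 21224412 counts per mouse. The lung label was borne out by Sftpc, the surfactant gene of alveolar type 2 cells, which stood between 28586 and 44740 CPM (counts scaled to library size, here after TMM) in all 10 mice. Ern1 itself stood between 8.05 and 20.5 CPM in Flox and between 10.7 and 26.1 CPM in EpithelialKO, ranges that overlap. Its log2 fold change was 0.04 ± 0.27 (SE), at an edgeR adjusted p of 0.975. Summed markers of alveolar type 2 cells ran from 37890 to 45971 CPM in Flox and from 45759 to 57076 CPM in EpithelialKO (5 genes), and those of endothelium from 1672 to 2245 and from 1295 to 1705 CPM (4 genes). None of these 9 genes passed the test, and their part in the clock values was not tested. The counts cover the whole gene and the whole organ, so they do not check the genotype labels. Flox mice 4 and 6 stood apart from the other mice, with 3949 and 4866 counts of Xist, the RNA of the inactive X chromosome, and 0 counts summed over the Y-linked genes Ddx3y, Eif2s3y, Kdm5d and Uty. In the other 8 mice Xist had 2 to 61 counts and the Y-linked sum was 2462 to 3575. The fold change of each member is given below with and without these mice.

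No clock gene was called different between EpithelialKO and Flox in its mean level. None of the 10 members passed an adjusted p of 0.05 in edgeR, against 0.0392% of the 15301 genes tested (0.00654% higher and 0.0327% lower in EpithelialKO). At an unadjusted p under 0.05 there was 1 member, Nr1d1, or 1 of 10, against 12.4% of all genes tested. DESeq2 and limma-voom also called 0 members, each with 1 member at an unadjusted p under 0.05. The log2 fold change of EpithelialKO over Flox was positive in 8 members, with a median of 0.20, beside 7668 positive of 15301 and a median of 0.00084 over all genes tested. The median of the members rested on single mice: it was 0.32 without Flox mouse 2, 0.11 without Flox mouse 4, 0.10 without Flox mouse 6 and 0.04 without Flox mice 4 and 6. The values of the groups overlapped in every member, while 3.12% of all genes tested had groups that did not overlap. In bulk tissue, fewer cells of a type and less RNA per cell cannot be told apart.

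The mice themselves differed widely, and at the ends of the range Arntl stood opposite to most of the genes it switches on. Flox mouse 2 had the lowest Arntl and the highest Dbp, Per2, Per3, Cry1 and Nr1d2. Flox mouse 6 had the highest Arntl and the lowest Dbp, Per2, Nr1d1 and Nr1d2. The EpithelialKO mice lay between these: in Arntl, Per1, Per2, Per3, Nr1d2 and Dbp all 5 EpithelialKO values fell inside the range of the 5 Flox values. This was so for 6 of 10 members and for 18.8% of all genes tested. Not every target ran opposite to the activators: EpithelialKO mouse 21 had the highest Clock, Npas2 and Nr1d1, at 79.9, 7.62 and 205 CPM.

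**Figure D1:**
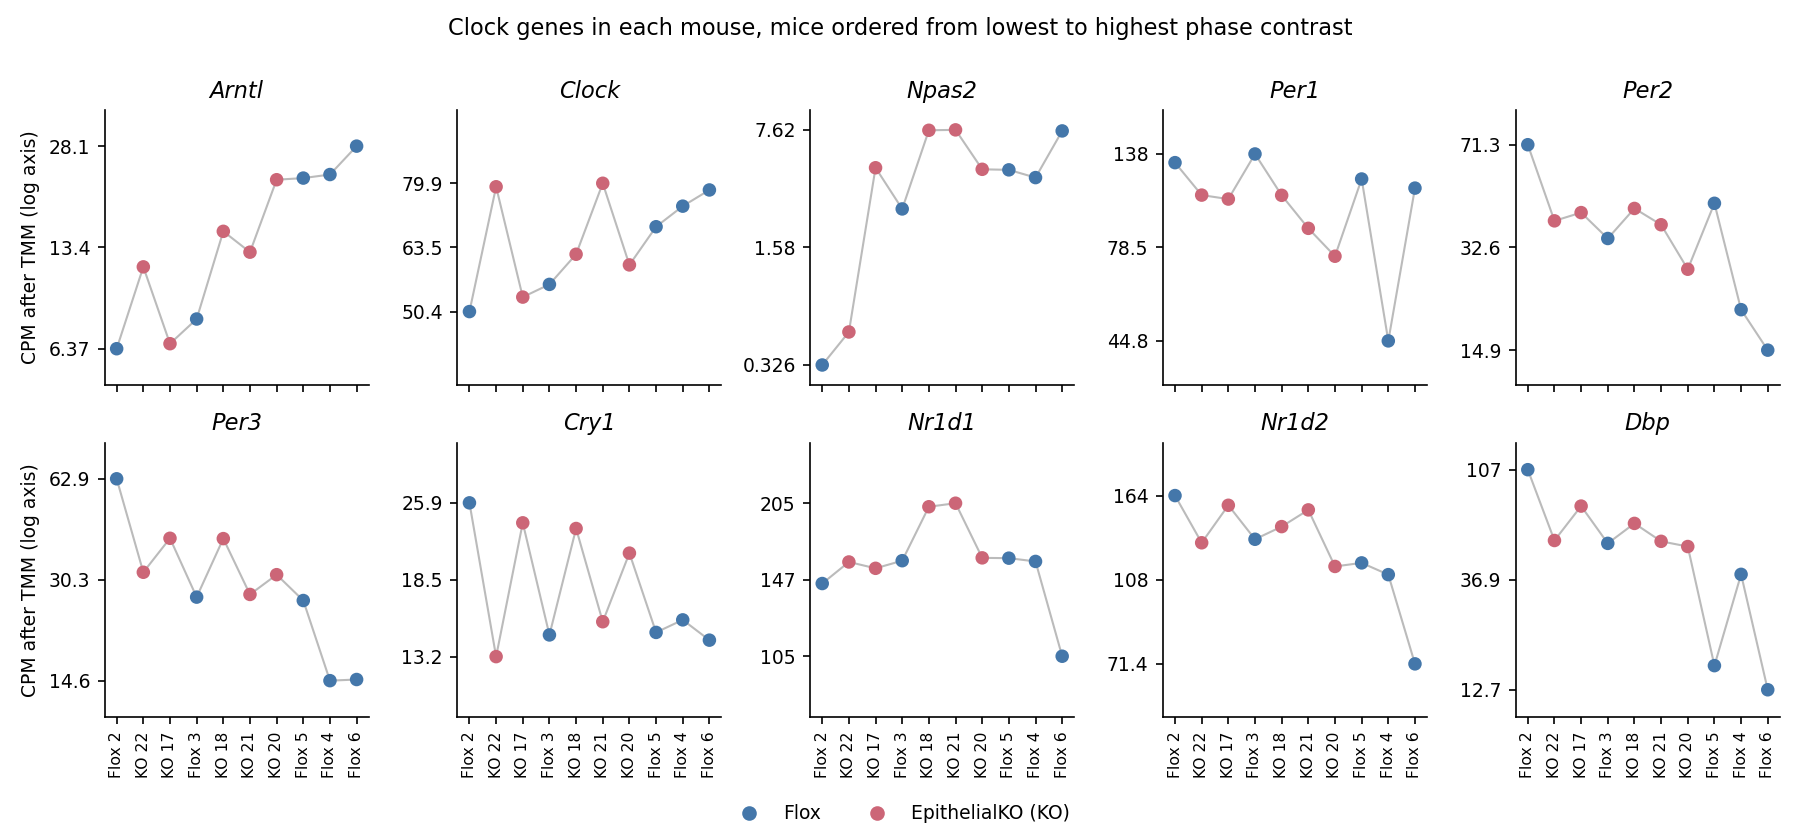
CPM after TMM scaling (log axis) of the 10 clock genes in each of the 10 mice, with Flox in blue and EpithelialKO (KO) in red. The mice are ordered by the phase contrast described in the text, which was computed from 9 of these genes, so the order is no independent result. Arntl runs from 6.37 CPM in Flox mouse 2 to 28.1 CPM in Flox mouse 6, and Dbp runs the other way, from 107 to 12.7 CPM.

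Among the activators, Arntl, the partner that both CLOCK and NPAS2 need (Entrez 11865, GRCm38 chr7:113178471-113314126), had low and high mice in both groups. It stood at 6.37, 7.92, 22.8, 22.2 and 28.1 CPM in Flox mice 2, 3, 4, 5 and 6, and at 6.61, 15.1, 22.0, 12.9 and 11.6 CPM in EpithelialKO mice 17, 18, 20, 21 and 22. Flox thus held low mice and high mice with none between, and EpithelialKO ran from low to high. The means were 17.5 ± 9.73 and 13.6 ± 5.6 CPM (SD, n = 5 each). The fitted log2 ratio of EpithelialKO over Flox was -0.36 ± 0.44 (SE), with a 95% interval from -1.33 to 0.61 (edgeR adjusted p = 0.795). Without Flox mice 4 and 6 the log2 fold change was 0.18, so even its direction rested on those mice. Leaving out 1 mouse gave -0.12 without Flox mouse 6, -0.18 without EpithelialKO mouse 17 and -0.59 without EpithelialKO mouse 20, with -0.57 and -0.54 without Flox mouse 2 or 3.

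Clock, whose protein pairs with ARNTL (Entrez 12753, GRCm38 chr5:76209868-76305603), varied less between mice than Arntl or Npas2. It stood at 50.4, 55.6, 73.6, 68.4 and 78.0 CPM in the Flox mice and at 53.1, 61.9, 59.6, 79.9 and 78.9 CPM in the EpithelialKO mice, in the same order of mice. The groups spanned nearly the same range, and the log2 fold change was 0.03 ± 0.14 (SE, edgeR adjusted p = 0.959). It was 0.20 without Flox mice 4 and 6, and changed sign when some single mice were left out.

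Npas2, the paralog of Clock (Entrez 18143, GRCm38 chr1:39193702-39363240), was the member with the widest range, 23.4-fold. It stood at 0.326, 2.64, 4.02, 4.46 and 7.52 CPM in the Flox mice and at 4.59, 7.58, 4.49, 7.62 and 0.507 CPM in the EpithelialKO mice. A single mouse in each group, Flox mouse 2 and EpithelialKO mouse 22, was near 0, with 7 and 9 counts. The log2 fold change was 0.39 ± 0.70 (SE, edgeR adjusted p = 0.869), with a 95% interval from -1.14 to 1.93. It was 0.09 without Flox mouse 2, 0.80 without Flox mouse 6, 0.19 without EpithelialKO mouse 18, 0.18 without EpithelialKO mouse 21, 0.68 without EpithelialKO mouse 22 and 1.03 without Flox mice 4 and 6.

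The nuclear receptor repressors were the most abundant members. Nr1d1, which encodes REV-ERBα (Entrez 217166, GRCm38 chr11:98767932-98775377), stood at 144, 159, 159, 161 and 105 CPM in the Flox mice and at 154, 201, 161, 205 and 159 CPM in the EpithelialKO mice. EpithelialKO mice 18 and 21 were above all others, Flox mouse 6 was below all others, and the remaining 7 mice lay close together. The means were 145.9 ± 23.6 and 176 ± 24.7 CPM (SD, n = 5 each). Its fitted log2 ratio was 0.27 ± 0.12 (SE), with a 95% interval from 0.01 to 0.53. Its unadjusted p was 0.0421 and its edgeR adjusted p 0.38, so it did not pass. The ratio was 0.17 without Flox mouse 6 and 0.18 without Flox mice 4 and 6, at unadjusted edgeR p of 0.127 and 0.153. Nr1d1 shares 263 exon bases with Thra on the opposite strand, and the strand setting of the counting is not known. Thra had a log2 fold change of -0.16 ± 0.11 (SE).

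Nr1d2, which encodes REV-ERBβ (Entrez 353187, GRCm38 chr14:18204056-18239106), had its extremes in Flox mice 2 and 6. It stood at 164, 132, 111, 118 and 71.4 CPM in the Flox mice and at 157, 141, 116, 153 and 130.1 CPM in the EpithelialKO mice. All 5 EpithelialKO mice lay inside the Flox range, and the log2 fold change was 0.22 ± 0.17 (SE, edgeR adjusted p = 0.636). It was 0.08 without Flox mouse 6 and 0.01 without Flox mice 4 and 6. Without Flox mouse 2 it was 0.37, with an unadjusted p of 0.0295 and an edgeR adjusted p of 0.38.

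The Period genes, whose proteins bind and inhibit the ARNTL complexes, differed among themselves. Per2 (Entrez 18627, GRCm38 chr1:91415977-91459351) stood at 71.3, 34.9, 20.3, 45.6 and 14.9 CPM in the Flox mice and at 42.5, 43.8, 27.6, 38.7 and 39.9 CPM in the EpithelialKO mice. Per3 (Entrez 18628, GRCm38 chr4:150997018-151044707) stood at 62.9, 26.7, 14.6, 26.0 and 14.7 CPM in the Flox mice and at 40.9, 40.8, 31.4, 27.2 and 31.9 CPM in the EpithelialKO mice. Both were highest in Flox mouse 2 and low in Flox mice 4 and 6. The log2 fold changes were 0.04 ± 0.38 for Per2 and 0.25 ± 0.38 for Per3 (SE, edgeR adjusted p = 0.98 and 0.844). Without Flox mice 4 and 6 they were -0.39 and -0.17. Without Flox mouse 2 they were 0.42 and 0.75, the latter with an unadjusted p of 0.0022 and an edgeR adjusted p of 0.189. Per3 was at 0.08 without Flox mouse 4 and at 0.08 without Flox mouse 6. Over the fits without 1 mouse, Per2 ran from -0.16 to 0.42.

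Per1 (Entrez 18626, GRCm38 chr11:69095108-69109965), which hormones and acute stimuli also induce directly, did not follow the same order. It stood at 131, 138, 44.8, 118 and 112 CPM in the Flox mice and at 105, 107, 74.5, 88.0 and 107 CPM in the EpithelialKO mice. Flox mouse 4 alone was far below the others, and Flox mouse 6, which had the lowest Per2, had a Per1 level like most mice. The log2 fold change was -0.17 ± 0.25 (SE, edgeR adjusted p = 0.833). Without Flox mouse 4 it was -0.37 (unadjusted p = 0.00695, edgeR adjusted p = 0.286), and without Flox mice 4 and 6 it was -0.42 (unadjusted p = 0.0055, edgeR adjusted p = 0.513). It was closer to 0 without Flox mouse 2 (-0.10), Flox mouse 3 (-0.07) or EpithelialKO mouse 20 (-0.09). The summed CPM of 10 immediate early genes was lowest in Flox mouse 4 (644) and highest in Flox mouse 5 (1474), within ranges of 644 to 1474 in Flox and 647 to 1152 in EpithelialKO. Fos, Egr1 and the other 8 genes of that list gave 0 past the threshold, and their part in the Per1 values was not tested.

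Cry1, the cryptochrome repressor (Entrez 12952, GRCm38 chr10:85131700-85185054), stood at 25.9, 14.6, 15.5, 14.7 and 14.2 CPM in the Flox mice and at 23.7, 23.1, 20.8, 15.4 and 13.2 CPM in the EpithelialKO mice. In Flox only mouse 2 was high, whereas in EpithelialKO mice 17, 18 and 20 were high and mice 21 and 22 low. The log2 fold change was 0.18 ± 0.20 (SE, edgeR adjusted p = 0.767). It was 0.38 without Flox mouse 2, 0.29 without EpithelialKO mouse 22, 0.12 without Flox mouse 6, 0.09 and 0.10 without EpithelialKO mouse 17 or 18, and 0.06 without Flox mice 4 and 6.

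Dbp, the D-box transcription factor used as a readout of clock output (Entrez 13170, GRCm38 chr7:45705100-45710203), showed the sharpest difference in spread. It stood at 107, 52.4, 38.8, 16.0 and 12.7 CPM in the Flox mice and at 75.2, 63.6, 50.9, 53.5 and 53.9 CPM in the EpithelialKO mice. The Flox mice thus spanned 8.43-fold and the EpithelialKO mice 1.48-fold. The means were 45.4 ± 38.2 and 59.4 ± 10.1 CPM (SD, n = 5 each). Its fitted log2 ratio was 0.38 ± 0.54 (SE), with a 95% interval from -0.86 to 1.63 (edgeR adjusted p = 0.83). Without Flox mouse 2 it was 0.98 (unadjusted p = 0.0382, edgeR adjusted p = 0.412). It was 0.17 without Flox mouse 5, 0.14 without Flox mouse 6 and 0.016 without Flox mice 4 and 6. Dbp shares 539 exon bases with Sphk2 on the opposite strand. Sphk2 stood at 21.2 to 38.6 CPM over the 10 mice, a 1.82-fold range.

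Compared per length, as CPM per kilobase of merged exons over all 10 mice, Nr1d1 had the highest level, 59.2 ± 10.2 (SD, n = 10). Dbp at 28.5 ± 14.9 and Nr1d2 at 27.7 ± 5.84 came next and did not differ beyond their spread, and Per1 stood at 18.2 ± 4.87. Clock, Per2, Cry1, Per3 and Arntl followed between 6.64 ± 1.14 and 5.04 ± 2.51, within each other's spread. Npas2 was lowest, at 1.03 ± 0.64. On these means, the transcripts of Nr1d1, Nr1d2 and Dbp stood above those of the activators in the whole lung. The order need not hold in each mouse: in Flox mouse 6, before scaling to length, Dbp was at 12.7 CPM and Arntl at 28.1 CPM. Exon bases that Nr1d1 and Dbp share with genes on the opposite strand were not set apart.

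**Figure D2:**
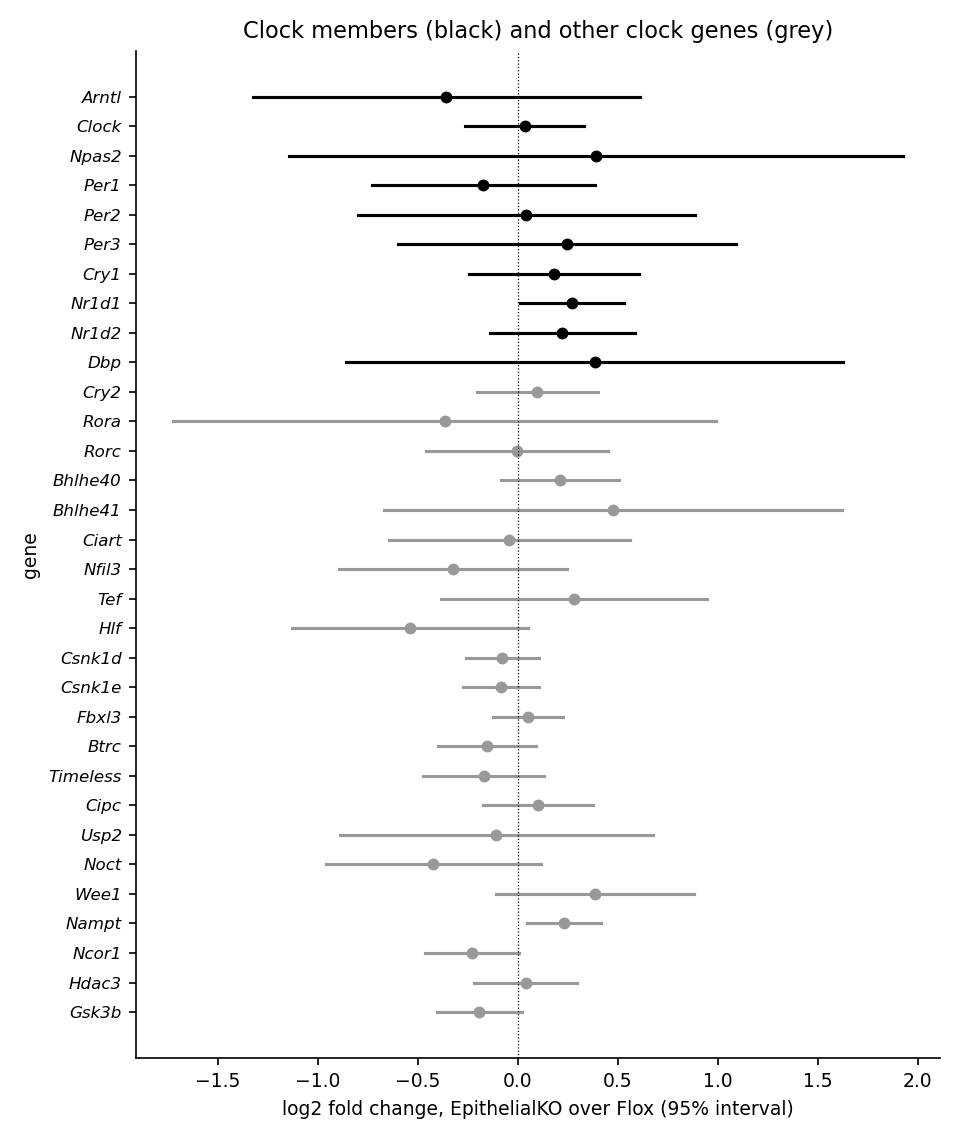
Log2 fold change of EpithelialKO over Flox with its 95% interval for the 10 clock members (black) and 22 other clock genes (grey). The intervals of Npas2, Dbp and Arntl are wide, and the intervals of Nr1d1 and Nampt lie just above 0 although neither gene passed after adjustment.

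To place each mouse on a single scale, the mean log2 CPM of Nr1d1, Nr1d2, Dbp, Per1, Per2 and Per3 was subtracted from that of Arntl, Clock and Npas2. This phase contrast is high where activators are high relative to their targets. It is an index of the pattern and not a measured time of day, and as a score over the members it was not tested. It was -4.35, -2.76, -1.26, -1.63 and -0.52 in Flox mice 2, 3, 4, 5 and 6, and -2.81, -2.12, -1.79, -1.87 and -3.14 in EpithelialKO mice 17, 18, 20, 21 and 22. The lowest mouse and the 3 highest mice were all Flox, and every EpithelialKO mouse lay between. The group means were -2.10 ± 1.5 in Flox and -2.35 ± 0.60 in EpithelialKO (SD, n = 5 each), a difference of -0.24 that was smaller than the spread within either group.

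The difference between the group means followed single mice of both groups. Without Flox mouse 2 it was -0.80, without Flox mouse 6 it was 0.16, and without Flox mice 4 and 6 together it was 0.57. It was -0.40, -0.03 and -0.12 without Flox mouse 3, 4 or 5. Without EpithelialKO mouse 22 it was -0.04 and without EpithelialKO mouse 17 -0.13, and without EpithelialKO mouse 18, 20 or 21 it lay from -0.30 to -0.38. Flox mice 4 and 6, the 2 without Y-linked counts, had the highest contrasts by this definition, and the part of that difference in the contrast was not tested. Flox mouse 5 ranked above Flox mouse 4 when only Arntl and Npas2 were set against Nr1d1 and Dbp (-2.34 and -3.02), and when Per1 and Per2 were left out (-1.48 and -1.56). The group difference was -0.43 and -0.36 by these definitions. The low contrast of EpithelialKO mouse 22 leaned on Npas2, with 9 counts. With each gene scaled to its own mean and SD over the mice (z scores), that mouse was at -0.47. This was above EpithelialKO mouse 17 (-1.20) and Flox mouse 3 (-0.91). Flox mouse 2, with 7 counts of Npas2, stayed lowest at -2.63. The group difference in z scores was -0.54. The activator mean alone lay between 2.39 and 4.68 log2 CPM in Flox and between 3.05 and 4.33 in EpithelialKO. The mean of the repressors and Dbp lay between 5.19 and 6.74 in Flox and between 5.98 and 6.39 in EpithelialKO.

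**Figure D3:**
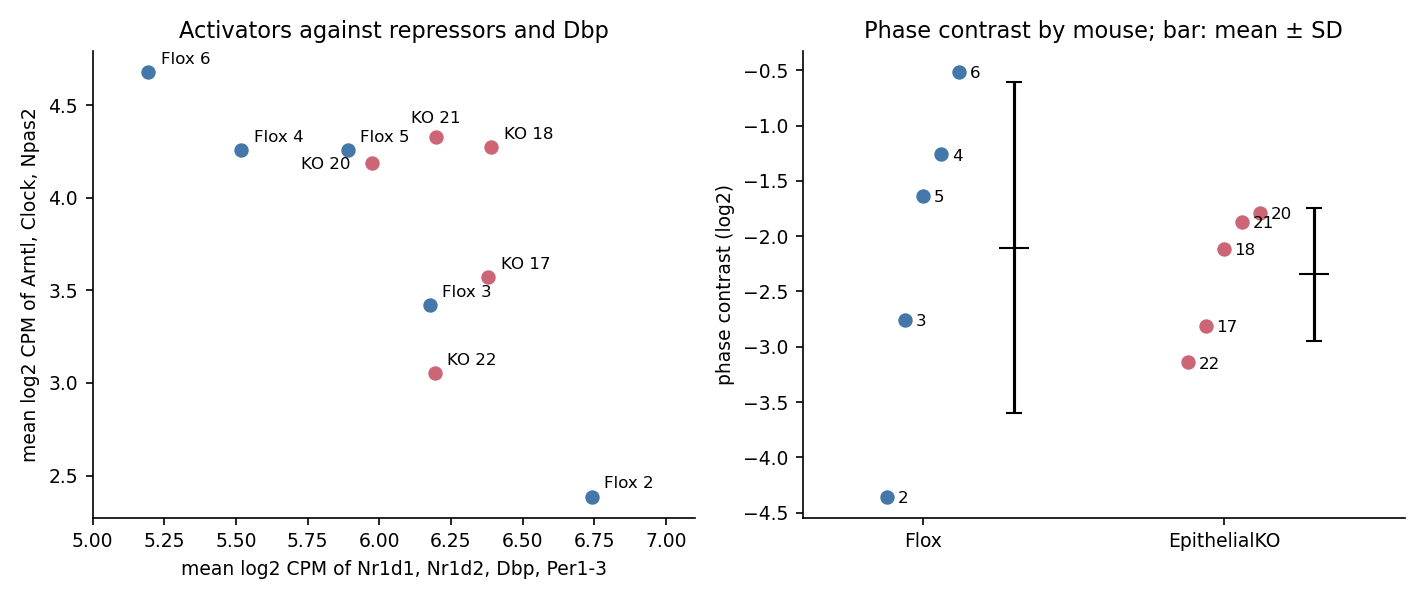
Left: mean log2 CPM of Arntl, Clock and Npas2 against that of Nr1d1, Nr1d2, Dbp, Per1, Per2 and Per3, 1 point per mouse. Right: their difference, the phase contrast, by group, with mouse numbers and the mean ± SD of 5 mice. Flox mice (blue) run from -4.35 to -0.52 and EpithelialKO mice (red) from -3.14 to -1.79.

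Members of opposite role mostly varied in opposite directions between mice. Over the 45 pairs of members, the Pearson correlation of log2 CPM was negative in 17 of the 18 pairs of an activator with a gene from the other side of the contrast (median r = -0.51). It was positive in 14 of the 15 pairs among Nr1d1, Nr1d2, Dbp and the Per genes (median r = 0.51) and in all 3 pairs of activators. By rank Nr1d1 did not follow this pattern, as given below. Cry1, which is not in the contrast, had r of -0.45 with Arntl, -0.77 with Clock and -0.11 with Npas2, and of 0.74 with Per3 and 0.65 with Dbp. After Benjamini-Hochberg adjustment over the 45 pairs, 6 passed 0.05 in a two-sided permutation test, 4 positive and 2 negative, and 16 had an unadjusted p under 0.05. All members are read from the same library of a mouse, and the first principal component of the 10 members held 57.5% of their variance.

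Arntl ran against Nr1d2 (r = -0.79, permutation p = 0.00154, adjusted p = 0.0173, rho = -0.89 with permutation p = 0.00107) and against Dbp (r = -0.79, permutation p = 0.00382, adjusted p = 0.0291, rho = -0.88 with permutation p = 0.00156). Without the mice farthest from the Arntl median, Flox mouse 2 and EpithelialKO mouse 17, r was -0.71 and -0.67. Inside each group, r of these pairs was also negative, at -0.84 and -0.89 in Flox and -0.78 in EpithelialKO for both, with 5 mice each and no test. Both pairs were named for their low r over the same mice, so this is no separate result. Over all 18 pairs of an activator with a gene from the other side, the median r inside EpithelialKO was -0.02. Among the 8 mice with Y-linked counts, Arntl had r of -0.79 with Nr1d2 and -0.72 with Dbp. Clock with Cry1 (r = -0.77), Arntl with Per3 (r = -0.74) and Arntl with Per2 (r = -0.72) had an adjusted permutation p of 0.0665 each and did not pass. Their rho was -0.68, -0.81 and -0.59 (permutation p = 0.0343, 0.00732 and 0.0805).

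Per2, Per3, Nr1d2 and Dbp mostly ran together. Per2 with Per3 had the highest correlation (r = 0.90, permutation p = 0.00126, adjusted p = 0.0173, rho = 0.68 with permutation p = 0.0357). Per2 with Nr1d2 (r = 0.87), Nr1d2 with Dbp (r = 0.86) and Per3 with Nr1d2 (r = 0.80) passed at adjusted permutation p of 0.0171, 0.0171 and 0.0291, with rho of 0.73, 0.90 and 0.82 (permutation p = 0.021, 0.00077 and 0.0058). Per3 with Dbp had r = 0.77 (permutation p = 0.0111, adjusted p = 0.0636) and did not pass. The rank correlation of this pair was rho = 0.93 (permutation p = 0.00027, adjusted p = 0.0121). The Per3 promoter held D-box matches, and binding of DBP there was not tested.

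These relations lean on the mice at the ends of the range. Without the 2 mice farthest from the median of the first gene of a pair, r was 0.73 for Per2 with Per3, 0.64 for Per2 with Nr1d2, 0.62 for Nr1d2 with Dbp, 0.86 for Per3 with Nr1d2 and 0.84 for Per3 with Dbp. Only Per3 with Dbp passed after adjustment there (unadjusted exact permutation p = 0.00062), a pair that did not pass over all 10 mice. The pairs that passed over all 10 mice did not pass there. Without Flox mice 4 and 6, 0 of the 45 pairs passed after adjustment in an exact permutation test of the 8 remaining mice, and 5 had an unadjusted p under 0.05. The signs were mostly kept there: 15 of the 18 pairs across the contrast were negative, and 11 of the 15 pairs among Nr1d1, Nr1d2, Dbp and the Per genes positive. Cry1 there had r of -0.31 with Arntl, -0.73 with Clock and 0.0006 with Npas2. Inside the groups the median r of the 18 pairs was -0.84 in Flox and -0.02 in EpithelialKO, a difference that was not tested.

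Some pairs of Per1 and Nr1d1 showed little relation. Per1 had r = 0.04 with Dbp and r = 0.19 with Nr1d2. Nr1d1 had r = -0.20 with Arntl, -0.02 with Clock and 0.16 with Npas2. The adjusted permutation p of these pairs lay between 0.667 and 0.959. Nr1d1 with Nr1d2 had r = 0.70, but rho was 0.08, and r was 0.05 without Flox mice 4 and 6. The rho of Nr1d1 was 0.08 with Per2, -0.36 with Per1, -0.07 with Per3 and -0.04 with Dbp. With Arntl, Clock and Npas2 it was positive, at 0.13, 0.26 and 0.47. None of these rho passed after adjustment, and by rank Nr1d1 did not run opposite to the activators.

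**Figure D4:**
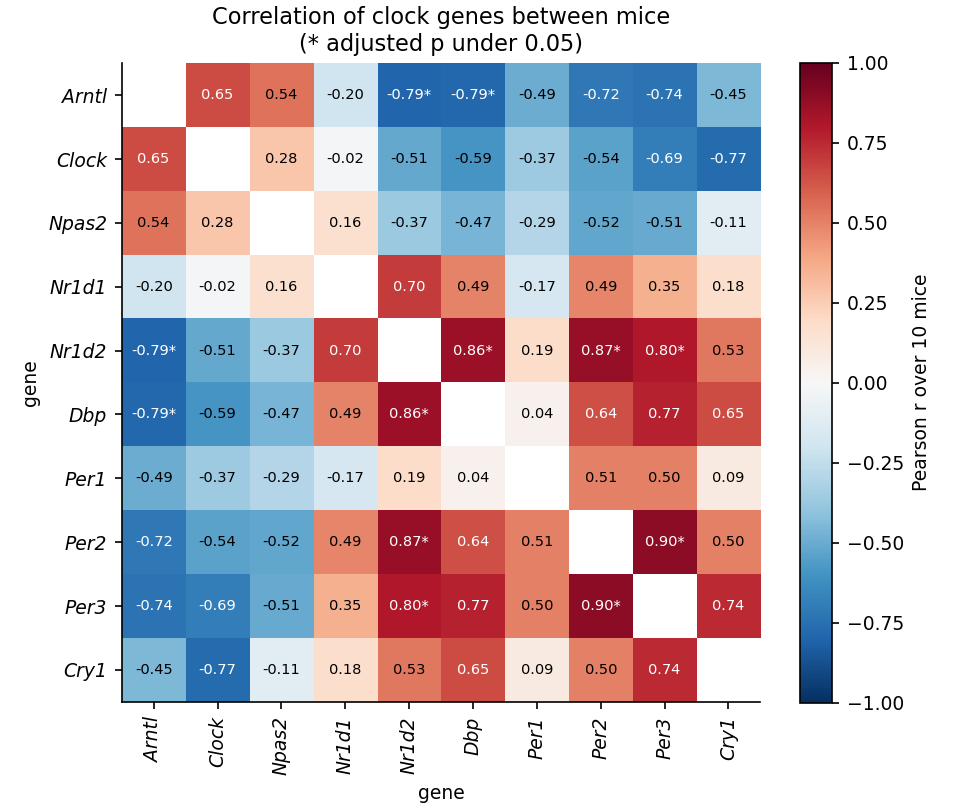
Pearson r of log2 CPM over the 10 mice for each pair of clock members, from blue (negative) to red (positive), with an asterisk where the adjusted permutation p is under 0.05. Arntl and Clock are blue against Nr1d2, Dbp, Per2 and Per3 and most of these are red among themselves.

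Clock genes were among the transcripts that varied most between mice. Setting each member beside the tested genes within 0.5 log2 CPM of its mean level, 7 of 10 had a within-group SD larger than 90% of those genes. The share of such genes with a smaller SD was 99.8% for Npas2 and Dbp, 99.5% for Per2 and Arntl, 99.1% for Per3, 98.9% for Per1 and 94.7% for Nr1d2. It was 85.8% for Clock, 84.2% for Cry1 and 80.0% for Nr1d1. These shares are descriptions and the members are not independent of each other.

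The spread was wider in Flox than in EpithelialKO for 9 of 10 members, all but Cry1, against 48.5% of all genes tested. The SD of log2 CPM in Flox over that in EpithelialKO was 5.39 for Dbp (1.26 and 0.23), 3.37 for Per2 (0.90 and 0.27), 3.36 for Per3 (0.86 and 0.26), 2.86 for Per1 (0.67 and 0.23) and 2.47 for Nr1d2 (0.44 and 0.18). A ratio over 2 was thus found in 5 of 10 members, compared with 11.2% of all genes tested. The median SD of all genes tested was 0.25 in both groups. This comparison of spread was chosen after the values were seen and was not tested.

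Single mice carried some of these ratios and not others. For Dbp, Per2, Per3, Nr1d2 and Arntl the Flox SD stayed above the EpithelialKO SD whichever single mouse of either group was left out. For Per1 the Flox SD was 0.13 without Flox mouse 4, and for Cry1 it was 0.05 without Flox mouse 2. In Flox mice 2, 3 and 5, all with Y-linked counts, the SD was 1.38 for Dbp, 0.95 for Arntl, 0.72 for Per3, 0.52 for Per2, 0.24 for Nr1d2 and 0.11 for Per1.

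**Figure D5:**
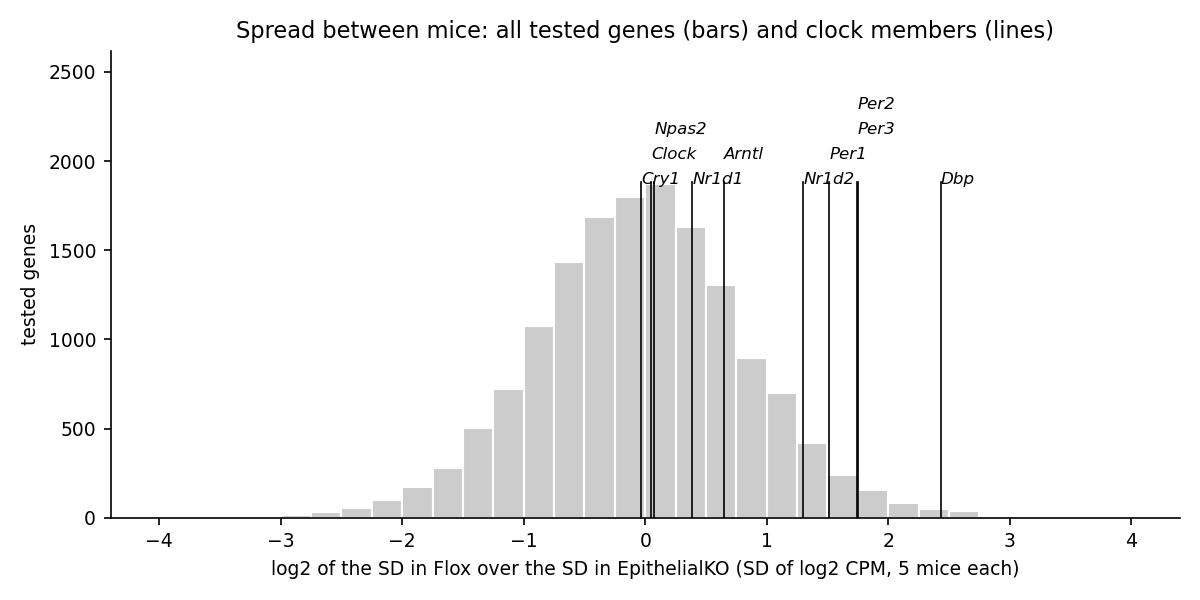
Histogram of the log2 ratio of the SD of log2 CPM in Flox over that in EpithelialKO for the 15301 genes tested (bars), with the 10 clock members as lines. The bars centre on 0, while Dbp, Per2, Per3, Per1 and Nr1d2 lie to the right of 1 and Cry1, Clock and Npas2 near 0.

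Of 25 other genes of the clock, 22 passed the filter and 0 passed an adjusted p of 0.05 in edgeR. At an unadjusted p under 0.05 there was 1 (Nampt), against 12.4% of all genes tested. DESeq2 and limma-voom also called 0, with 2 and 3 at an unadjusted p under 0.05. The log2 fold change was positive in 9 and negative in 13, with a median of -0.06. Nampt, the enzyme of NAD synthesis that ARNTL and CLOCK drive, had 0.23 ± 0.09 (SE, edgeR adjusted p = 0.289), from 101.7 ± 9.06 to 119 ± 7.42 CPM (SD, n = 5 each). Hlf, a D-box factor of the same family as Dbp, had -0.54 ± 0.27 (SE, edgeR adjusted p = 0.448). The corepressor Ncor1 had -0.23 ± 0.11, the kinase Gsk3b -0.19 ± 0.10, Nocturnin (Noct) -0.42 ± 0.25, and the cell cycle kinase Wee1 0.39 ± 0.23. The E-box repressor Bhlhe40 had 0.21 ± 0.14 and the ubiquitin ligase subunit Btrc -0.15 ± 0.12 (SE), with edgeR adjusted p from 0.414 to 0.626 for these 6 genes. Single mice moved several of these values: Hlf was at -0.16 without Flox mouse 2, Noct at -0.07 without Flox mouse 5, Wee1 at 0.25 without Flox mouse 4 or EpithelialKO mouse 22, and Bhlhe40 at 0.33 without Flox mouse 3 and 0.12 without EpithelialKO mouse 17. Ncor1 and Wee1 were at -0.10 and 0.10 without Flox mice 4 and 6, where Bhlhe40 was at 0.08.

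Some of the 22 other genes tested followed the phase contrast, which they did not enter, and others did not. Over the 10 mice, the Pearson r to the contrast was -0.87 for Tef, the other D-box factor related to Dbp, -0.82 for Wee1, -0.81 for Cry2, -0.80 for Usp2 and 0.69 for Nfil3, a D-box repressor. For comparison, 90% of the 15291 tested genes that were no members lay between -0.50 and 0.49. Tef stood at 386 CPM in Flox mouse 2 and 102 CPM in Flox mouse 6, and between 208 and 291 CPM in EpithelialKO. Without Flox mice 4 and 6, r was -0.77 for Tef, -0.73 for Wee1, -0.62 for Cry2, -0.63 for Usp2 and 0.68 for Nfil3. The kinases Csnk1d and Csnk1e, which phosphorylate the PER proteins, had r of -0.10 and -0.27. Rora, Bhlhe40 and Bhlhe41 had r of 0.10, -0.24 and -0.32, also inside the range of most genes. All genes named in this paragraph were picked after their values were seen.

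Among all tested genes that were no members, those most like the contrast were ranked by the same r, as a description. The most negative was Ephx1, the microsomal epoxide hydrolase, at -0.95 (-0.94 without Flox mice 4 and 6). It stood between 165 and 262 CPM over the mice, with group means of 196 and 199 CPM. Pmm1 (-0.89), Zfand4 (-0.88), Tef, Gm15337 (-0.87), B3galnt1 (-0.86), Tspan4, Zdhhc1 and the club cell cytochrome Cyp4b1 (all -0.85) followed, with 1 gene that had no RefSeq symbol. The most positive were Xrcc2 (0.91), D330041H03Rik (0.88), Gjb1 (0.87), Fam124b, Alg13, Scd1 and Ddah1 (all 0.86), Car2 and Arrdc4 (0.86 and 0.85) and 1 gene with no RefSeq symbol. Scd1, the stearoyl-CoA desaturase that type 2 cells use for surfactant lipid, ranged from 1342 to 2719 CPM. An r over 0.8 in size was found for 0.353% of these genes.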

How the data were processed

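Whole-lung RNA of 5 Flox and 5 EpithelialKO mice was sequenced after capture on oligo(dT) beads, per the labels' protocols. The authors' tools were cutadapt and HISAT2 with the GRCm38 build, per the submitters' processing notes. How reads were assigned to genes (tool, annotation, strand setting, multiply mapped reads) is not given in the sources used. The authors deposited raw counts, whole numbers for each Entrez gene in each mouse, without normalization. RefSeq (GRCm38.p6) gave symbols for 25275 of 27179 genes.

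Filtering with filterByExpr left 15301 genes, which were scaled by TMM and tested with edgeR 4.0.16 (quasi-likelihood, robust, group as the only term, R 4.3.3) at a Benjamini-Hochberg adjusted p of 0.05. SE was derived from the F statistic. CPM are after TMM, and log2 CPM use a prior count of 2. Exon lengths and overlaps come from GENCODE M21. Correlations over mice used permutation tests (100000 resamples, or all pairings of 8 mice), in Python 3.11.15. The comparison of spread was added after the values were seen. The edgeR test of EpithelialKO against Flox was tested on simulated data (3 runs of 15301 genes): it called 90.3% of genes changed 4-fold, 72.0% changed 2-fold, 37.3% changed 1.5-fold and 0.053% of unchanged genes. In these runs the changed genes were drawn at random, and each gene had the same dispersion in both groups. The shares are therefore not those for the members. Of the members, 7 of 10 had a within-group SD larger than 90% of genes of like level.

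The members and lists were chosen with earlier results of these data known. Named were all members, the 8 other clock genes of lowest p, the 5 most positive and 5 most negative pairs, and the 10 genes at each end of the ranking by r to the phase contrast. Alternatives were other scalings, DESeq2 1.42.0, limma-voom 3.58.1, other filters, a threshold of 0.1 and leaving out mice. Mice are separate animals by the labels.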

Additional observations from a re-analysis of the deposited data

Results flagged for a closer look

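In 5 of the 38 groups of 5 values checked, 1 mouse lay so far from the next that the gap exceeded 0.71 of the group's range, where chance gives about 1 in 20. All 5 were in Flox. Flox mouse 2 was far above the others in Per3 (62.9 CPM, gap 0.749 of the range), Cry1 (25.9 CPM, 0.887) and Hlf (42.7 CPM, 0.713). Flox mouse 4 was far below in Per1 (44.8 CPM, 0.725). Flox mouse 5 was far above in Noct (24.1 CPM, 0.7103).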

How the results depend on the processing

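No member and no other clock gene passed under any alternative run, so both counts stayed at 0. The count over all genes was 6 and became 279 with the DESeq2 Wald test, 29 with limma-voom, 34 without a count filter, 38 at a threshold of 0.1, 0 without Flox mice 4 and 6, and 0 to 48 when 1 mouse was left out. Of the 180 fold changes of members under alternatives, 169 kept their direction and 11 reversed. The 169 include 1 per member at the threshold of 0.1, where the fit is the main fit and no direction could reverse. The reversed log2 fold changes were 0.18 for Arntl, -0.39 for Per2 and -0.17 for Per3 without Flox mice 4 and 6, and 0.0126 for Per1 with limma-voom. Leaving out 1 mouse gave -0.16 to 0.42 for Per2, negative without Flox mouse 4 (-0.11) or 6 or EpithelialKO mouse 18 (-0.008). It gave -0.046 to 0.107 for Clock, negative without Flox mouse 2 or 3 or EpithelialKO mouse 21 or 22. The cause was not tested. The difference in phase contrast ran from -0.80 to 0.16 over the fits without 1 mouse. The count of 6 pairs past 0.05 was 1 without the 2 mice farthest from the median and 0 without Flox mice 4 and 6, tests that hold 8 mice, and 8 after centring on group means. The 1 pair, Per3 with Dbp, was not among the 6. No paired analysis was possible because the groups share no mouse numbers.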

Other observations

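Genes that glucocorticoids induce and genes that follow temperature can act as daily signals to the clock, and both lists were read in the same mice. The summed CPM of 10 glucocorticoid-induced genes, Per1 included, ran from 868 in Flox mouse 4 to 1591 in Flox mouse 5, and from 928 to 1557 in EpithelialKO. The summed CPM of 7 temperature-linked genes, Cirbp, Rbm3 and 5 heat shock genes, ran from 1464 to 2667 in Flox and from 1601 to 3530 in EpithelialKO. No member of either list passed an adjusted p of 0.05 in edgeR. The median log2 fold change was 0.04 for the first list and -0.21 for the second.

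Low values in single mice were also seen in other clock genes, chosen here after their values were seen. Rora, the activator that competes with the REV-ERB receptors at ROREs, was at 0.799 CPM in Flox mouse 5 and 0.417 CPM in EpithelialKO mouse 17, and between 3.83 and 9.80 CPM in the other 8 mice. Bhlhe41, an E-box repressor, was at 0.466 CPM in Flox mouse 5 and between 6.71 and 12.7 CPM in the other 9 mice.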
